A study of Mus musculus with 11 samples.

Results

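Genes of the Wnt signalling pathway were followed in GFP-positive cells sorted from the V-SVZ (ventricular-subventricular zone), a germinal region lining the lateral ventricles, of CD1/Swiss mice at postnatal day 2. The set was fixed by name and holds 50 of the 39179 genes in the count table: 13 Wnt ligands, 10 Frizzled receptors, 2 Lrp coreceptors, 3 receptors of the Ror and Ryk kinase type, 8 secreted inhibitors, 3 R-spondins, 6 intracellular transducers and 5 feedback targets. All 50 had a row, and the 41 with a mean of at least 0.5 CPM (the read count scaled to the library's total) over all 11 libraries were tested. The 9 below that floor were Wnt2, Wnt3a, Wnt4, Wnt8b, Wnt11, Fzd10, Rspo1, Rspo2 and Rspo3.

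The comparison set 6 control libraries (Gsh2-Cre; Zeb2fl/wt, with the reporter RCE) against 5 mutant libraries (Gsh2-Cre; Zeb2fl/ko, also with RCE). RCE is a Cre-dependent GFP reporter, so GFP marks cells whose ancestors expressed Cre from the Gsh2 promoter, which is active in the ventral forebrain germinal zone. Both groups carry Cre and a floxed Zeb2 allele: the sorted control cells are expected to keep 1 allele of this zinc finger repressor gene and the mutant cells none. The mutants' null allele is present in every cell of the animal, not only in the sorted lineage. The labels do not tie libraries to animals, and the p-values therefore speak of the spread between libraries, which may be technical.

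Wnt proteins are secreted lipid-modified ligands. They bind Frizzled receptors, and with the Lrp coreceptors this stabilises beta-catenin, which acts with the Tcf and Lef factors on target genes; Wnt5a and Wnt11 mostly act through other branches that use the Ror and Ryk receptors. Secreted antagonists hold ligands away from their receptors or, as most Dickkopf proteins do, block the Lrp coreceptors. Several target genes, Axin2 among them, feed back to damp the signal. In the forebrain the pathway is known for patterning, progenitor proliferation and the growth of axons.

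Depth was 6833981 to 13073505 counts per library. The gene-level count of Zeb2 did not fall in mutant-labelled libraries. It was 238 ± 46.7 TMM-scaled CPM in the controls (SD, n = 6) and 302 ± 63.8 TMM-scaled CPM in the mutants (SD, n = 5, log2 fold change 0.35, edgeR adjusted p = 0.308). A gene-level count takes in exons outside the deleted part, so it does not check the genotype, and all directions rest on the labels. Exons of Zeb2 also share 653 bases with Zeb2os on the other strand, whose mean was only 1.13 CPM by library totals. The 8 neuroblast markers summed to 2751 CPM or more in every library, whereas 8 endothelial markers summed to at most 84.7 CPM, most of it from Slco1c1, and Tek was at 0 throughout. Counts of 4 Y-linked genes were present in controls 1, 2, 3 and 6. They were 0 in controls 4 and 5 and in all 5 mutants. Y-linked reads come from male cells, so sex was partly confounded with genotype in the main comparison. Mutant 5 stood apart in summed choroid plexus and ependymal markers (207 CPM against 4.88 to 16.8 CPM in the others). Of that sum 193 CPM came from Ttr alone and 4.48 CPM from Folr1. Otx2, Foxj1 and Rsph1 lay within the range of the other libraries, and Kcnj13, Kl and Ccdc153 had no counts in mutant 5. Control 6 stood apart in oligodendrocyte precursor markers (2372 CPM against 588 to 1327 CPM).

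Of the 41 tested members, 4 fell in the mutants (the ligand gene Wnt5a and the inhibitor genes Sfrp2, Sfrp4 and Dkk3), 1 rose (the inhibitor gene Wif1), and 36 did not pass the test (edgeR's quasi-likelihood test, adjusted p under 0.05 over all 15227 genes tested). Over all those genes 4.14% passed, 2.52% higher and 1.62% lower, against 12.2% of the members. The median log2 fold change of the tested members was 0.12, beside -0.02 for all genes. The control and mutant ranges did not touch for 3 members (Wnt5a, Sfrp2 and Wif1), or 7.32%, against 4.67% of all genes. Of the tested members 6 reached the floor through 1 group alone. These were Wif1, Ror1 and Dkk1 through the mutants and Wnt10a, Dkk2 and Tcf7l1 through the controls. The call and the separation of Wif1 therefore carry no weight against the shares over all genes. In bulk RNA, fewer cells of a type and less RNA per cell cannot be told apart, which holds for every change below.

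**Figure D1:**
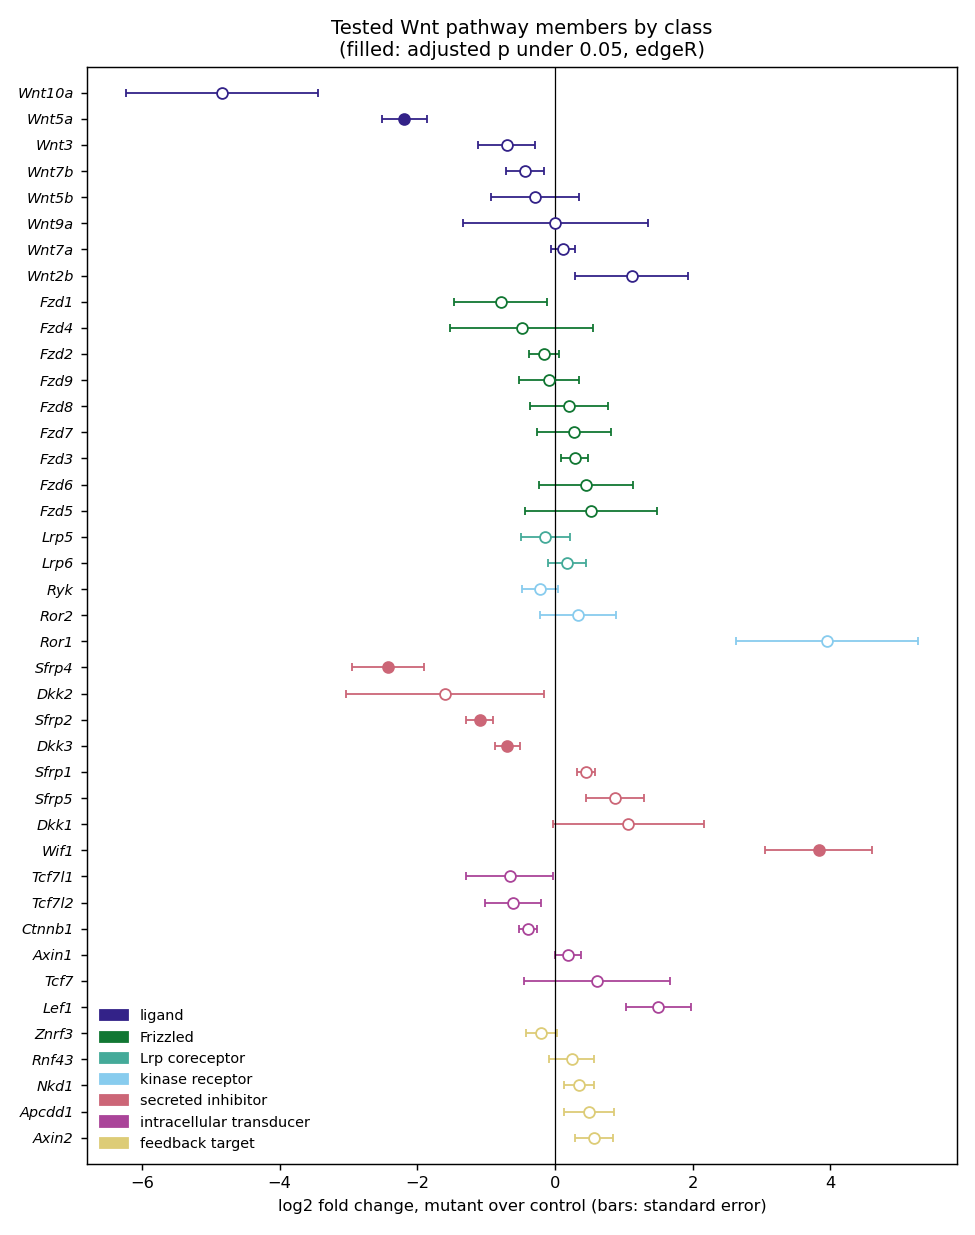
Log2 fold change of mutant over control (x axis) for the 41 tested members, ordered by class (colours); bars are standard errors and filled points passed an adjusted p of 0.05. The 5 filled points are Wnt5a among the ligands and Sfrp4, Sfrp2, Dkk3 and Wif1 among the secreted inhibitors, while the receptors, transducers and feedback targets hold only open points.

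Among the ligands, Wnt5a was the member that changed. Its gene (ENSMUSG00000021994, chromosome 14, positions 28504750 to 28527448, plus strand, GRCm38) encodes the ligand best known for signalling without beta-catenin. Controls 1 to 6 stood at 76.3, 38.6, 45.3, 78.1, 33.6 and 37.4 TMM-scaled CPM, the unit of all CPM values from here on unless said otherwise. Mutants 1 to 5 stood at 15.75, 4.50, 10.2, 13.5 and 12.2 CPM. Every mutant library lay below every control, the highest mutant at 15.75 CPM and the lowest control at 33.6 CPM. The mean went from 51.5 ± 20.2 CPM (SD, n = 6) to 11.2 ± 4.27 CPM (SD, n = 5), a 4.56-fold decrease (log2 fold change -2.19, SE 0.32, edgeR adjusted p = 0.00111). Exons of Wnt5a share 358 bases with Gm2670 on the opposite strand, whose mean was 1.05 CPM by library totals.

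The level of Wnt5a in the controls was uneven. Controls 1 and 4 held the highest values of Wnt5a. These 2 libraries were also the highest for Wnt10a and Sfrp4, 3 of 41 tested members in all. The same count was not made over all genes, so it is not read as a pattern of the members. Controls 1 and 4 also had the highest summed neuroblast markers of the controls (4132 and 4310 CPM by library totals, against 2751 to 3616 CPM). Their summed astrocyte and radial glia markers were the lowest (660 and 759 CPM, against 1006 to 1490 CPM). Mutant libraries, with neuroblast markers at 3475 to 4814 CPM and glial markers at 617 to 1286 CPM, overlapped both ranges. Without controls 1 and 4, a comparison chosen after seeing the data, Wnt5a was still lower (log2 fold change -1.78, edgeR adjusted p = 0.00693, where 2.67% of all genes passed).

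Wnt7a, a ligand of neural progenitors that signals through beta-catenin, was the most abundant ligand per length of transcript. Its level per kilobase of exon (RPKM, from TMM-scaled CPM) was 48.5 in controls and 52.6 in mutants on average. The controls ran from 117 CPM through a median of 137 CPM to 256 CPM, and the mutants held 149, 185, 173, 155 and 173 CPM. Control 6 alone stood above the mutants and the other 5 controls below them (log2 fold change 0.12, SE 0.17, edgeR adjusted p = 0.802).

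Next in order per length in the controls came Wnt7b, Wnt5a and Wnt3, at 7.47, 6.59 and 3.17 RPKM on average. In the mutants the order was Wnt7b, Wnt3 and Wnt5a, at 5.54, 1.94 and 1.43 RPKM, and the levels of Wnt3 and Wnt5a there did not differ beyond the spread of Wnt3 (SD 1.32 RPKM). Wnt7b, a close relative of Wnt7a, had a mean of 36.6 ± 9.77 CPM in controls and 27.1 ± 11.6 CPM in mutants, and Wnt3 of 9.75 ± 4.60 and 5.97 ± 4.07 CPM; neither passed the test (log2 fold changes -0.43 and -0.70). Wnt5a made up 4.57% to 15.2% of the summed RPKM of the 13 ligands in controls and 0.895% to 3.495% in mutants. The Wnt7a share was 64.7% to 77.2% and 80.5% to 90.6%. The sum itself overlapped between groups, at 51.07 to 105 RPKM and 57.6 to 67.6 RPKM. The shares of Wnt5a and Wnt7a thus separated the groups and the total did not. Both are parts of 1 sum, and by CPM Wnt5a separated the groups and Wnt7a did not.

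**Figure D2:**
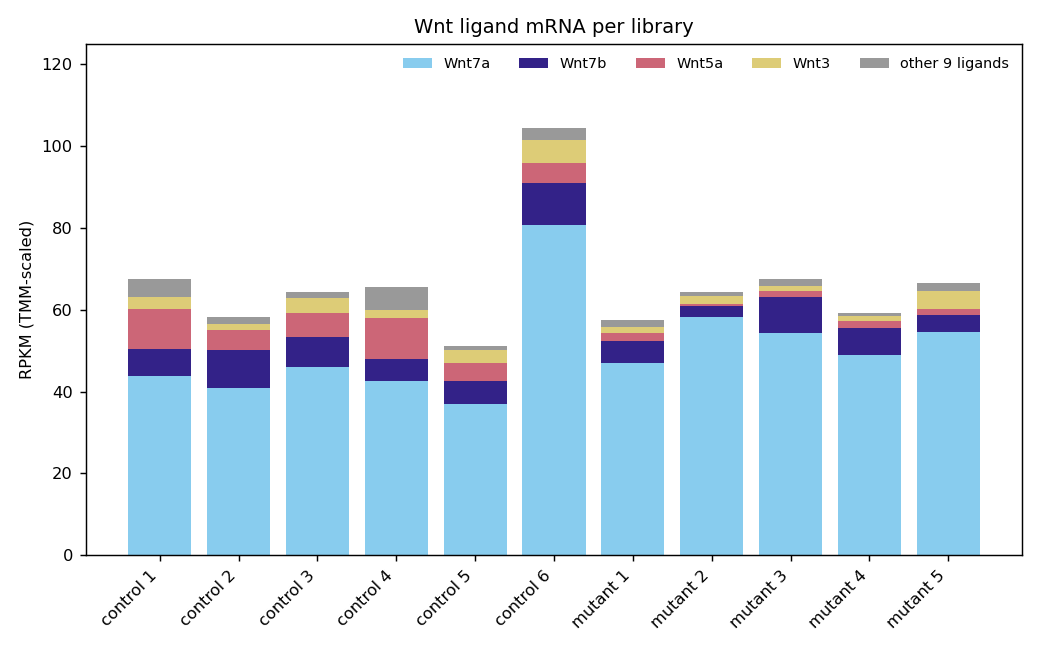
Stacked RPKM of Wnt ligand genes (y axis, from TMM-scaled CPM) in each of the 11 libraries (x axis), with the 4 most abundant ligands in colour and the other 9 summed in grey. Wnt7a fills most of each bar, the Wnt5a band is thinner in all 5 mutants than in any control, and control 6 has the tallest bar at 105 RPKM.

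Low ligands gave 2 further patterns, named after their values were seen. Wnt10a, a ligand of the beta-catenin branch, stood at 8.76, 1.05, 0, 10.8, 0.665 and 3.88 CPM in controls 1 to 6 and at 0.764 CPM in mutant 3, with 0 in the other mutants. It missed the threshold (log2 fold change -4.84, SE 1.39, edgeR adjusted p = 0.0698), and controls 3 and 5 lay within the mutant range. Single libraries decided its value: it passed without control 3 (-5.11, edgeR adjusted p = 0.0369, where 3.13% of all genes passed) and with a floor of 2 CPM (-4.87, edgeR adjusted p = 0.0434, where 5.14% passed). Without mutant 3 the remaining mutants are all at 0, and the fitted -8.48 (edgeR adjusted p = 0.0522) is then no measure of size. Without control 4 the log2 fold change was -4.27 (edgeR adjusted p = 0.164). Wnt11, like Wnt5a a ligand of the branches without beta-catenin, had 0 counts in all 6 controls and 7, 7, 17, 2 and 19 counts in mutants 1 to 5. Against a floor of 3 counts per control library that made it at least 2.97-fold higher in the mutants on the mean by library totals. It lay under the floor for testing. With no filter on low counts it passed (edgeR), where 2.36% of genes did. That share is over 24950 genes, among them those under the floor, so the pass carries no weight against it. The remaining tested ligands, Wnt2b, Wnt5b and Wnt9a, averaged under 2 CPM with overlapping groups, and Wnt8b had no count in any library.

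None of the 14 tested receptor genes passed (9 Frizzled, 2 Lrp and 3 kinase-type), near the background of 4.14% of all genes at this number. Fzd3, a Frizzled known for axon guidance and planar polarity, was the highest Frizzled per length, at 13.5 RPKM in controls and 16.5 RPKM in mutants. It ran from 109 CPM through a median of 168 CPM to 244 CPM in the controls, and stood at 236, 179, 212, 217 and 210 CPM in the mutants, all inside the control range. Its log2 fold change was 0.28 (SE 0.19, edgeR adjusted p = 0.501). Fzd2, next per length at 4.49 and 3.99 RPKM, ran from 11.09 to 19.1 CPM in controls and from 9.61 to 19.9 CPM in mutants (log2 fold change -0.17). Fzd9 averaged 2.26 and 2.14 RPKM. The other 6 tested Frizzled genes each averaged under 1 RPKM in both groups, with log2 fold changes from -0.79 (Fzd1) to 0.52 (Fzd5) and standard errors of 0.54 to 1.04. At these levels a difference of that size was not detectable beyond the spread between libraries.

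Lrp6, the more abundant of the Lrp coreceptors, stood at 9.32 to 27.3 CPM in the controls (median 21.8 CPM) and at 19.4, 20.02, 36.9, 17.1 and 22.8 CPM in the mutants. These ranges overlapped (log2 fold change 0.18), and without mutant 3 its sign turned (-0.05). Ryk, an atypical receptor kinase that binds Wnt5a, was highest of its class per length at 3.53 and 3.03 RPKM. It ranged from 9.09 to 24.5 CPM in the controls (median 16.4 CPM) and stood at 13.2, 14.01, 16.6, 13.4 and 11.5 CPM in the mutants, within that range (log2 fold change -0.22).

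Ror1, a receptor kinase for Wnt5a named here after its values were seen, split the mutants. It stood at 9.60, 10.6 and 9.97 CPM in mutants 1, 3 and 4 and at 0 and 0.0830 CPM in mutants 2 and 5. The controls held at most 1.78 CPM, with 4 of 6 at 0. The difference did not pass (log2 fold change 3.95, SE 1.32, edgeR adjusted p = 0.122). Without control 4, the control with the highest value, the log2 fold change was 5.74 (edgeR adjusted p = 0.0567), and in the other 10 fits without 1 library it was 3.66 to 4.27. Its relative Ror2 was at 3.23 ± 2.94 CPM in the controls (SD, n = 6) and 4.11 ± 2.12 CPM in the mutants (SD, n = 5).

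Secreted inhibitors held 4 of the 5 members that changed, 3 lower and 1 higher of 8 tested, where 1.62% of all genes were lower and 2.52% higher. The 1 higher, Wif1, reached the floor for testing through the mutants alone, so its call carries no weight against the 2.52%. Sfrp2 (chromosome 3, 83766321 to 83774316, plus strand) encodes a Frizzled-related protein that binds Wnts outside the cell. Its controls stood at 29.1, 23.2, 41.02, 25.4, 28.7 and 29.6 CPM and its mutants at 12.6, 10.4, 15.4, 17.3 and 13.3 CPM. No mutant reached the lowest control. Sfrp2 was 2.14-fold lower, at 13.8 ± 2.65 CPM (SD, n = 5) against 29.5 ± 6.17 CPM (SD, n = 6; log2 fold change -1.09, SE 0.20, edgeR adjusted p = 0.0044).

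Wif1 (chromosome 10, 121033960 to 121100650, plus strand), whose product binds Wnt ligands through its WIF domain, went the other way. Controls 1, 3 and 5 had 0 counts and controls 2, 4 and 6 had 9, 8 and 5, whereas mutants 1 to 5 had 91, 63, 42, 76 and 27. In CPM the mutants stood at 6.99, 6.31, 4.59, 5.70 and 2.24, all above the highest control at 0.837 CPM. Wif1 averaged 5.17 ± 1.86 CPM in the mutants (SD, n = 5) and 0.337 ± 0.389 CPM in the controls (SD, n = 6; log2 fold change 3.83, SE 0.78, edgeR adjusted p = 0.0114), and the size of that fold depends on few control counts. Mutant 5, the library with high Ttr, was the lowest mutant.

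The promoters of Wif1 and Sfrp2 are shown because these inhibitors separated the groups in opposite directions and Zeb2 is known to bind CACCT and CACCTG boxes. Capitals mark each match on either strand (CACCT or AGGTG, extended to CACCTG or CAGGTG where present), in RefSeq windows of 300 bases on GRCm38.p6, plus strand, from 250 bases before to 50 after the annotated start. Every CACCTG also contains CACCT.
Wif1, chr10:121033754-121034053: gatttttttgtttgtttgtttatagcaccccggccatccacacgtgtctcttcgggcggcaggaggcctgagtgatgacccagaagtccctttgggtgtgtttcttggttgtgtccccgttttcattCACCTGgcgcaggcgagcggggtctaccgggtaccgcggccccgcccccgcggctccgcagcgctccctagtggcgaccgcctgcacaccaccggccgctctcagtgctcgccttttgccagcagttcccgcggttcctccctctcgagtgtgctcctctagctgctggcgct
Sfrp2, chr3:83766071-83766370: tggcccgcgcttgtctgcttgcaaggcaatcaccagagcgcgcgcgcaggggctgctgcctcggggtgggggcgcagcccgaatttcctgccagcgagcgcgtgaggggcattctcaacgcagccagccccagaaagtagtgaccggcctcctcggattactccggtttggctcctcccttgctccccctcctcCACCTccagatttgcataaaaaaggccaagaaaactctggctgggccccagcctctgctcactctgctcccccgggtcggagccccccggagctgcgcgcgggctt
The Wif1 window holds 1 CACCTG, 123 bases before the start, and the Sfrp2 window 1 CACCT without the final G, 56 bases before it. CACCTG occurs in 20.2% of all 32851 promoter windows and CACCT in 51.9%. Among the members, 33 had an entry, with 43 windows, of which 25.6% held CACCTG and 55.8% CACCT. The Tcf/Lef core CTTTGAT, on either strand, was in 4.65% of the members' windows and 3.73% of all. A match describes these letters only. Wnt5a, Sfrp4 and Dkk3 had no entry. The window of Wls, a pathway gene outside the members described below, was searched in the same way and held no match.

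Sfrp4 (chromosome 13, 19623104 to 19632994, plus strand), another Frizzled-related antagonist, fell in the mutants but with a wide spread among controls. Controls 1 to 6 stood at 23.01, 12.8, 5.82, 27.6, 7.10 and 3.51 CPM, and mutants 1 to 5 at 3.76, 3.30, 1.31, 1.95 and 1.91 CPM. Control 6 lay inside the mutant range, and controls 1 and 4 held the highest values. The mean went from 13.3 ± 9.90 to 2.45 ± 1.04 CPM, 5.38-fold lower (log2 fold change -2.43, SE 0.53, edgeR adjusted p = 0.0163). Without controls 1 and 4 the log2 fold change was -1.575 and the call was lost (edgeR adjusted p = 0.101), and without mutant 3 it was just past 0.05 (-2.28, edgeR adjusted p = 0.0527, where 2.57% of all genes passed).

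Dkk3 (chromosome 7, 112116017 to 112159057, minus strand) is the divergent Dickkopf, a family whose other members block the Lrp coreceptors. It stood at 49.6, 73.3, 74.8, 53.5, 59.2 and 64.2 CPM in controls 1 to 6 and at 34.0, 28.6, 33.9, 54.1 and 42.6 CPM in mutants 1 to 5. Mutant 4 lay above controls 1 and 4. The mean was 38.6 ± 10.01 CPM in the mutants (SD, n = 5) and 62.4 ± 10.3 CPM in the controls (SD, n = 6; log2 fold change -0.69, SE 0.18, edgeR adjusted p = 0.0415). Of the 5 calls this one was lost most often over the alternatives, including 9 of the 11 fits that left out 1 library, without control 2, 3, 4, 5 or 6 or mutant 1, 2, 3 or 5 (log2 fold changes -0.85 to -0.60 over all 11, edgeR adjusted p up to 0.112).

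Sfrp1, the highest inhibitor per length at 17.3 RPKM in controls and 23.6 RPKM in mutants, did not pass. Its controls ran from 59.2 through a median of 75.01 to 94.3 CPM and its mutants stood at 109, 96.5, 110, 110.4 and 91.6 CPM, with mutant 5 alone below the top control. The log2 fold change was 0.45 (SE 0.13, edgeR adjusted p = 0.0633), and DESeq2 called it (adjusted p = 0.0149), where DESeq2 called 7.45% of genes. Sfrp5, named after its values were seen, had controls at 4.45, 8.12, 12.8, 2.51, 2.44 and 12.2 CPM and mutants at 11.5, 10.2, 12.7, 19.4 and 11.2 CPM (log2 fold change 0.87, edgeR adjusted p = 0.315). Dkk1 and Dkk2 averaged under 1 CPM in both groups.

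Per length, the summed inhibitor mRNA averaged 57.0 RPKM in controls and 51.5 RPKM in mutants, with overlapping ranges. Its makeup differed: Sfrp1 was 27.0% to 34.4% of it in controls and 40.2% to 49.7% in mutants. Sfrp2 was 17.2% to 27.5% and 10.9% to 13.8%, and Dkk3 was 28.5% to 34.9% and 19.2% to 26.8%. Sfrp5 was 2.54% to 11.04% and 11.9% to 16.3%, and Wif1 at most 0.696% and 1.95% to 5.85%. These 5 shares did not overlap between the groups, and those of Sfrp4, Dkk1 and Dkk2 did. By CPM only 2 of the 8 inhibitors (Sfrp2 and Wif1), or 25%, were without overlap, against 4.67% of all genes. Wif1 reached the floor for testing through the mutants alone, so its separation carries no weight against the 4.67%. Shares of a sum have no such figure over all genes. The shares are parts of 1 sum, so a lower share of one raises the others.

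**Figure D3:**
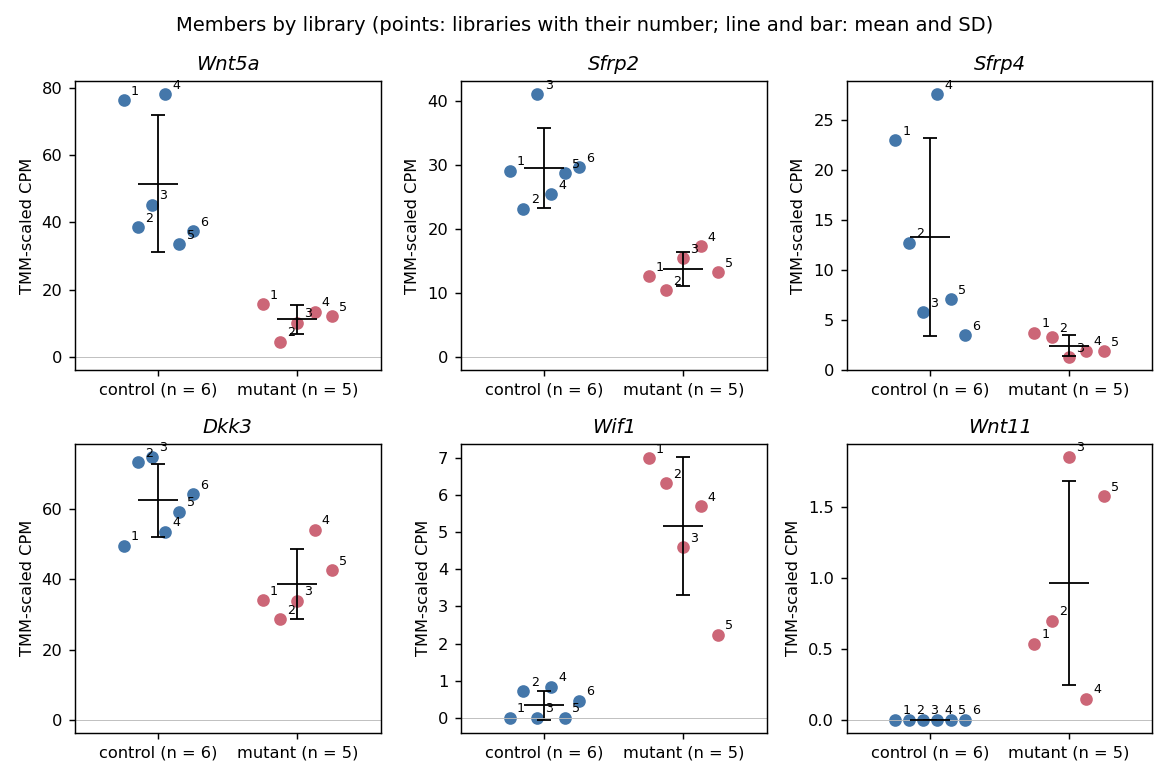
TMM-scaled CPM (y axes, separate scales) of the 5 members past the threshold and of Wnt11, which was not tested, in the 6 control and 5 mutant libraries; numbers name the library, and the line and bar give the mean and SD. The groups do not touch for Wnt5a, Sfrp2, Wif1 and Wnt11, whereas Sfrp4 and Dkk3 overlap at control 6 and at mutant 4.

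R-spondins, which amplify Wnt signals through Lgr receptors, were near 0. Rspo1, the highest of the 3 per length, stood at 1.19, 0.161, 0.296, 0, 0.776 and 0 CPM in controls 1 to 6 and at 0.900 CPM in mutant 4, with 0 in the other mutants. The 3 genes together gave at most 0.693 RPKM in any library.

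None of the 6 intracellular transducers passed, near the background of 4.14% of all genes for so few. Ctnnb1, which encodes beta-catenin, was the most abundant member per length at 143 RPKM in controls and 109 RPKM in mutants. Its controls ran from 639 through a median of 745 to 872 CPM, and its mutants stood at 697, 487, 675, 478 and 499 CPM. Mutants 1 and 3 lay inside the control range and the other 3 below it (log2 fold change -0.39, SE 0.13, edgeR adjusted p = 0.114). Its exons share 759 bases with Ulk4 on the opposite strand.

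Lef1, a Tcf/Lef factor and itself a Wnt target, named after its values were seen, stood at 5.34, 3.46, 5.33, 5.02, 0.333 and 5.17 CPM in controls 1 to 6 and at 15.4, 11.7, 11.1, 15.0 and 4.90 CPM in mutants 1 to 5. Mutants 1 to 4 were above every control and mutant 5 was within their range. The log2 fold change of 1.50 (SE 0.47) missed the threshold (edgeR adjusted p = 0.0997). It passed with DESeq2 (adjusted p = 0.0275) and without control 5 (1.26, edgeR adjusted p = 0.0403, where 4.16% of all genes passed). Axin1, a scaffold of the beta-catenin destruction complex and second in level per length, was at 3.65 and 4.14 RPKM (log2 fold change 0.18). Tcf7, Tcf7l1 and Tcf7l2 each averaged under 5 CPM and had overlapping groups.

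None of the 5 feedback targets, read as a transcriptional record of beta-catenin signalling, passed, near the 4.14% of all genes for so few. Nkd1, a Dishevelled antagonist and the highest of them per length, stood at 20.0 to 39.4 CPM in the controls (median 32.1 CPM) and at 31.1, 26.4, 39.9, 47.2 and 53.3 CPM in the mutants. Axin2, a scaffold of the complex that degrades beta-catenin, was at 10.09 ± 3.47 CPM in the controls (SD, n = 6) and 15.01 ± 4.00 CPM in the mutants (SD, n = 5). Their log2 fold changes were 0.35 (SE 0.22) and 0.57 (SE 0.27). Those of Apcdd1, Rnf43 and Znrf3 were 0.49, 0.24 and -0.20, with all ranges overlapping. Of the 5 values 4 were positive and 1 negative (median 0.35), and so few genes do not show that this signalling was unchanged.

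Beyond the members, 84 of 85 other genes of the pathway were in the table and 70 were tested. Of these 3 fell (Wls, Myc and Ccnd1), 3 rose (Cd44, Gpc4 and Tle2) and 64 did not pass; 8.57% passed, against 4.14% of all genes, and their median log2 fold change was 0.00. Wls, the carrier that brings Wnt proteins to the cell surface, stood at 150, 104, 114, 138, 105 and 86.9 CPM in controls 1 to 6 and at 65.7, 87.7, 59.6, 52.4 and 46.7 CPM in mutants 1 to 5. Only mutant 2 reached control 6. Wls averaged 62.4 ± 15.9 CPM in the mutants (SD, n = 5) and 116 ± 23.4 CPM in the controls (SD, n = 6; log2 fold change -0.90, SE 0.18, edgeR adjusted p = 0.00973). Controls 1 and 4 were highest here too, and without them the call was lost (-0.72, edgeR adjusted p = 0.0556).

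Myc and Ccnd1, a proliferation factor gene and the cyclin D1 gene, are known Wnt targets in several tissues and targets of other growth signals. Myc ran from 42.3 to 61.4 CPM in the controls and stood at 31.3, 29.4, 35.7, 25.4 and 20.09 CPM in the mutants, all lower (log2 fold change -0.92, SE 0.17, edgeR adjusted p = 0.0047). Ccnd1 ran from 29.7 to 44.1 CPM in the controls and stood at 13.2, 22.6, 12.9, 19.9 and 11.5 CPM in the mutants, again without overlap (log2 fold change -1.19, SE 0.21, edgeR adjusted p = 0.00367). Exons of Ccnd1 share 1100 bases with LTO1 on the opposite strand (37.6 CPM by library totals), so its counts are uncertain. Summed markers of cycling cells were 361 to 728 CPM by library totals in controls and 226 to 404 CPM in mutants, and their part in these decreases was not tested.

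Cd44, a hyaluronan receptor gene also known as a Wnt target, rose to 9.71 ± 3.46 CPM (SD, n = 5) from 2.47 ± 0.461 CPM (SD, n = 6; log2 fold change 1.97, SE 0.31, edgeR adjusted p = 0.00155). Its mutants, at 6.68, 11.5, 12.01, 5.32 and 13.03 CPM, all lay above the highest control at 2.97 CPM. Gpc4, a glypican gene whose product binds Wnts at the cell surface, and Tle2, a Groucho corepressor gene, rose by 0.76 and 0.71 on the log2 scale (edgeR adjusted p = 0.0433 and 0.0207), with no overlap between groups. Leaving out 1 library at a time, Gpc4 did not pass in 8 of 11 fits (all but those without control 2, control 3 or mutant 5; 0.63 to 0.85) and Tle2 did not pass without mutant 1 (0.62, edgeR adjusted p = 0.0701). None of 22 tested genes of the destruction complex and Dishevelled group and none of 12 planar cell polarity genes passed, both near the background of 4.14% of all genes at these numbers.

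**Figure D4:**
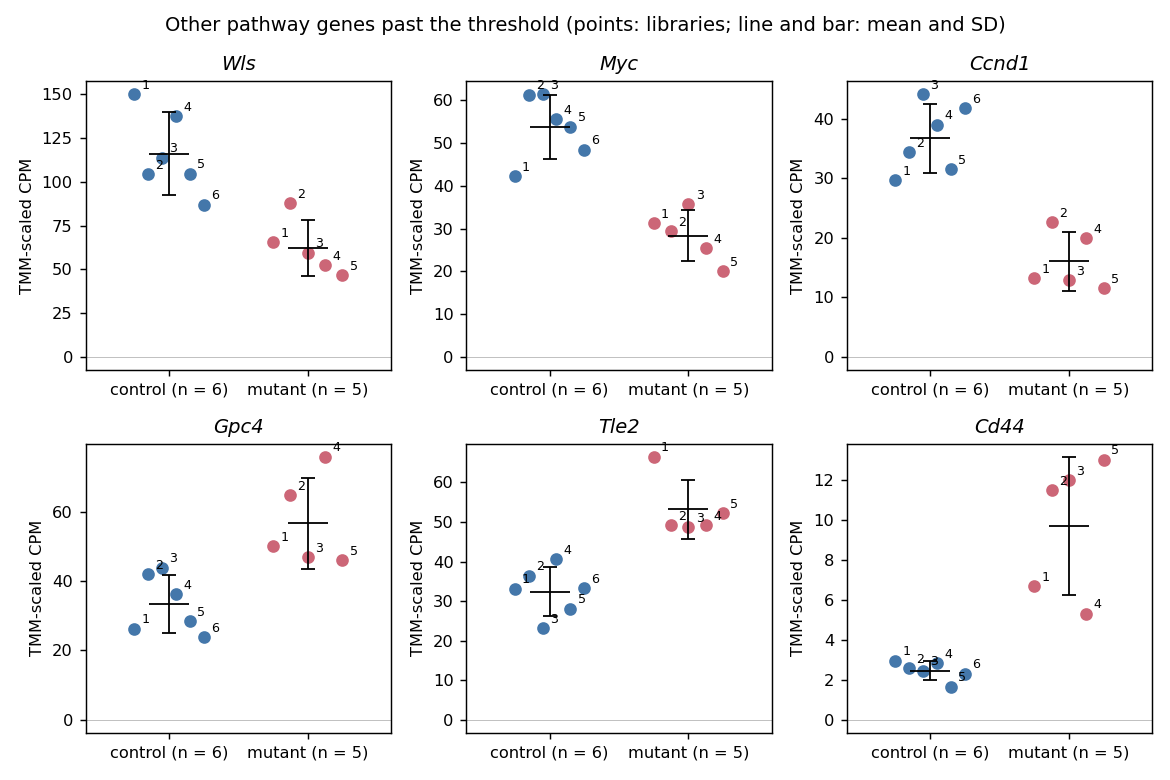
TMM-scaled CPM (y axes, separate scales) of the 6 other pathway genes past the threshold in the 6 control and 5 mutant libraries; numbers name the library, and the line and bar give the mean and SD. Wls, Myc and Ccnd1 are lower and Gpc4, Tle2 and Cd44 higher in the mutants, with overlap for Wls alone.

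Marker genes of 2 neuron types moved with these results. Summed markers of interneurons from the medial ganglionic eminence (8 genes, 6 higher and 1 lower in the mutants) were 478 to 800 CPM by library totals in controls and 2553 to 3924 CPM in mutants. Markers of striatal projection neurons (8 genes, 1 higher and 6 lower) were 565 to 1605 and 243 to 350 CPM. Both lists separated the groups completely, and their part in the changes of Wnt5a, the inhibitors and the other pathway genes was not tested.

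Because the mutants held no Y-linked counts, the test was repeated in the 7 libraries without them (controls 4 and 5 against 5 mutants), where 1.35% of genes passed. Wnt5a and Sfrp4 passed there, with log2 fold changes of -2.30 and -2.81 (edgeR adjusted p = 0.0222 and 0.0278). Control 4, 1 of the 2 controls in this fit, was the highest control for both (78.1 and 27.6 CPM). Sfrp2, Dkk3 and Wif1 kept their direction and did not pass (-0.96, -0.53 and 3.57, edgeR adjusted p = 0.136, 0.438 and 0.131). Sfrp5 passed in this smaller comparison, at 2.40 (edgeR adjusted p = 0.0151): its lowest controls, at 2.51 and 2.44 CPM, are the 2 without Y-linked counts. None of the 6 other pathway genes passed there (edgeR adjusted p = 0.0891 to 0.271). With the Y-linked level as a covariate, where 1.09% of genes passed, Wnt5a and Sfrp5 did (-2.32 and 2.34, edgeR adjusted p = 0.0132 and 0.0361). Sfrp4 lost its call with that covariate.

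**Figure D5:**
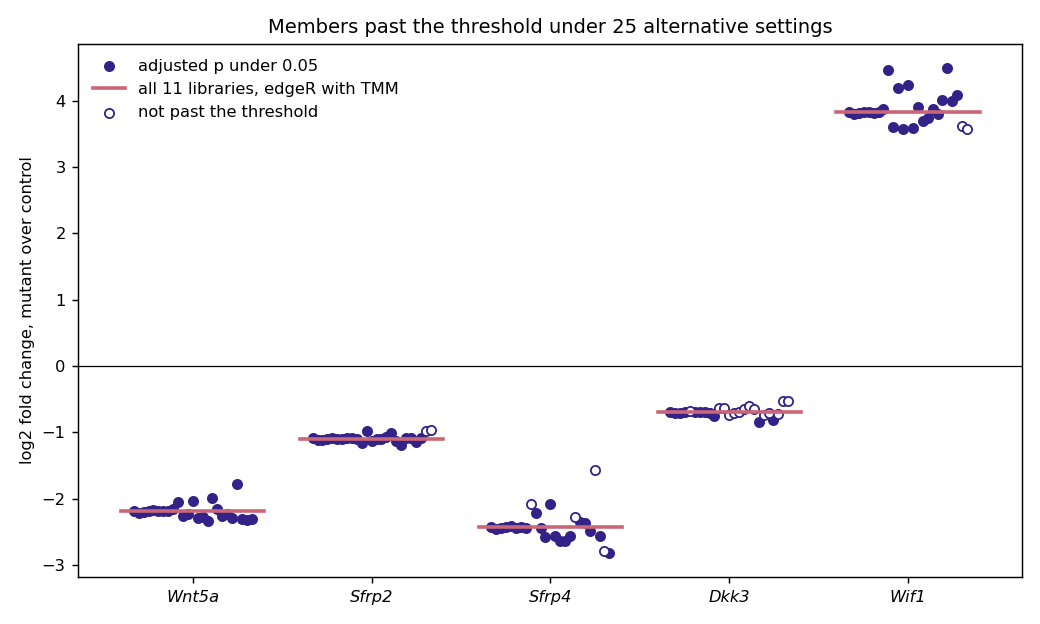
Log2 fold change of mutant over control (y axis) of the 5 members past the threshold under 25 alternative settings (points; filled where the adjusted p was under 0.05), with the line marking the value from all 11 libraries. Wnt5a stays filled at every setting, Sfrp2 and Wif1 at 23 of 25, Sfrp4 at 21 and Dkk3 at 11, and no point crosses 0.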

How the data were processed

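RNA was measured in GFP-positive V-SVZ cells sorted after papain treatment; TruSeq libraries were made from them, per the labels' protocols. The authors deposited unnormalised counts of reads for each Ensembl gene. The submitters' processing notes name TopHat2 2.0.13 and featureCounts 1.4.6, with mm10 and GRCm38 as builds. Which annotation release and which strand setting they used is not given in the sources used here, so reads of genes overlapping on opposite strands cannot be told apart.

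Symbols, exon lengths and coordinates came from GENCODE M21 (GRCm38), which matched 37693 of 39179 identifiers. Genes with a mean of at least 0.5 CPM by library totals over all 11 libraries entered the test of edgeR 4.0.16 under R 4.3.3 (TMM, robust quasi-likelihood fit, Benjamini-Hochberg over 15227 genes); the test was checked on simulated counts. All adjusted p-values are edgeR's unless DESeq2 1.42.0 or limma 3.58.1 is named. The members, gene lists and rules were chosen with earlier results of these data known. Per-library values are given for members past the threshold, the highest member per length in each class, and up to 8 other pathway genes past it. The alternatives were other scalings, filters, tools and thresholds, leaving out each library, a replicate block, a Y-linked covariate and libraries without Y-linked counts. Every pair of replicates differed by more than counting noise (lowest chi-square over its degrees of freedom 13.7). Floors cover counting error only.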

Additional observations from a re-analysis of the deposited data

Results flagged for a closer look

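Across 44 groups of libraries looked at (22 genes, controls and mutants), 7 had 1 library far from the rest of its group. The rule used flags about 1 in 20 groups by chance only for normally distributed values, and CPM with many zeros are not. Wnt10a, Lef1, Ror1 and Sfrp5 were also named after their values were seen, so the 7 are not compared with that rate. Among the controls the flagged values were Sfrp2 in control 3 (41.02 CPM), Wnt7a in control 6 (256 CPM) and Ror1 in control 4 (1.78 CPM). Among the mutants they were Lrp6 in mutant 3 (36.9 CPM), Wnt10a in mutant 3 (0.764 CPM, the others at 0), Sfrp5 in mutant 4 (19.4 CPM) and Tle2 in mutant 1 (66.5 CPM).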

How the results depend on the processing

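The count of changed members was 5 and stayed between 4 and 6 under the other scalings, filters and limma-voom, with 7 by DESeq2. It was 2 at an adjusted p of 0.01 and 8 at 0.1, 2 with the Y-linked covariate and 3 in libraries without Y-linked counts. Without 1 library it ranged from 3 (without mutant 3) to 5. For the other pathway genes the count of 6 became 10 by DESeq2, 0 with the covariate and 0 in libraries without Y-linked counts, and 4 to 6 without 1 library. Over all genes, 630 became 1134 by DESeq2, 279 and 971 at adjusted p of 0.01 and 0.1, 166 with the covariate, 205 without Y-linked counts, 406 without controls 1 and 4, and 392 (without mutant 3) to 634 without 1 library. Signs turned for Ryk without controls 1 and 4 (0.017) and in libraries without Y-linked counts (0.058), and for Lrp6 without mutant 3 (-0.052; up to 0.28 without 1 library) and with the replicate block (-0.014). The cause was not tested.

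Same-numbered controls and mutants did not deviate together (correlations -0.116 to 0.022), so the numbers are not taken as pairs; with the number as a replicate block, over libraries 1 to 5, 395 genes, 5 members (Lef1 in place of Dkk3) and 4 other pathway genes passed. Depth limits Wnt10a, Wif1, Ror1 and Wnt11, whose levels in the lower group rest on few counts.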
